A study of Mus musculus with 8 samples.

Results

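The 10 genes described here encode the Greatwall kinase, its 2 small phosphoprotein substrates and the subunits of protein phosphatase 2A (PP2A) that make up the phosphatase they control. They were chosen by name: Mastl, Ensa, Arpp19, Ppp2ca, Ppp2cb, Ppp2r1a, Ppp2r1b, Ppp2r2a, Ppp2r2b and Ppp2r2d. All 10 were among the 46078 genes of the count table and among the 19241 genes that passed the filter on low counts. RNA was measured in fully grown mouse oocytes at the germinal vesicle (GV) stage, in 4 libraries of CNOT7&8 KO oocytes and 4 libraries of control oocytes, each made from 100 oocytes. The KO oocytes came from females with floxed Cnot7 and floxed Cnot8 and a Zp3-Cre transgene, and the Zp3 promoter drives Cre in growing oocytes. The controls were Zp3-Cre oocytes, so that both groups carried the transgene. The study's methods describe females of 4 weeks on a C57BL/6J background, primed with PMSG, whose oocytes were freed of cumulus cells with hyaluronidase. CNOT7 and CNOT8 are deadenylases of the CCR4-NOT complex, which shortens the poly(A) tails of mRNAs and also holds a deadenylase of another family. Per the paper, that other deadenylase (CNOT6 or CNOT6L) joins the complex only through CNOT7 or CNOT8. Libraries are separate samples by their labels, which do not name the animals, so p-values measure the spread between these libraries.

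At the resumption of meiosis, cyclin B-CDK1 phosphorylates many proteins, and PP2A that carries a B55 subunit removes much of this phosphate. CDK1 activates Greatwall (encoded by Mastl), Greatwall phosphorylates ENSA and ARPP19, and these bind PP2A-B55 and inhibit it. A PP2A trimer is built from a catalytic subunit (Ppp2ca or Ppp2cb), a scaffold (Ppp2r1a or Ppp2r1b) and a regulatory subunit. In oocytes this switch is known for its part in meiotic maturation, and many maternal mRNAs are stored in GV oocytes with short tails until then.

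In CNOT7&8 KO oocytes, 6 of the 10 mRNAs were lower than in control at an adjusted p of 0.05 and 1 was higher, by the quasi-likelihood test of edgeR, with p-values adjusted by Benjamini-Hochberg. Over all genes tested, 24.1% were lower and 31.2% higher by the same rule. These shares varied with level, and all members but Ppp2cb had a mean of at least 10 CPM. Among genes of 10 to under 100 CPM 36.8% were lower and 25.8% higher, and among those of at least 100 CPM 55.3% and 8.33%. The lower mRNAs were Mastl, Arpp19, the scaffold Ppp2r1a and the B55 subunits Ppp2r2a, Ppp2r2b and Ppp2r2d, with 57.8% to 76.0% of the control mean left. The higher mRNA was the catalytic subunit Ppp2cb, at 723% of the control mean. It was the only differentially expressed gene (DEG) of the 10, a call that also asks for a 2-fold change, while 23.8% of all genes tested were DEGs higher in KO and 6.56% were DEGs lower in KO. In 5 of the 10 genes every KO library lay below every control library, and in 1 every KO library lay above, against 21.4% and 27.0% of all genes tested. These last shares were not split by level. Ensa, Ppp2ca and Ppp2r1b did not pass the test. The split between lower and higher was not the same under every scaling: with library size alone, or with TMM factors (edgeR's trimmed mean of M values) from genes of at least 10 CPM only, 3 members were lower and 3 higher.

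The study searched for the cytoplasmic polyadenylation element (CPE), a U-rich 3′UTR motif bound by CPEB1, in genes whose protein was higher in KO oocytes. It also compared EGFP reporters with and without the CPE, and names a consensus CPE in the genes it followed up, Mastl among them. The same motif was searched for in the members. TTTTAT was counted on the sense strand of the longest 3′UTR among the coding transcripts of each gene (GENCODE vM21, GRCm38). It was present in 7 of 10 members and in 56.2% of the 15113 coding genes tested that had a 3′UTR. The share was 68.8% among 3′UTRs of at least 500 bases and 21.1% among shorter ones, and the median 3′UTR length was 1963.5 bases for the members and 1119 for all. Ppp2ca and Ppp2r2a had 6 copies each, Mastl, Arpp19 and Ppp2r1a 2 each, and Ensa and Ppp2r1b 1 each. Ppp2cb, Ppp2r2b and Ppp2r2d had none, with 3′UTRs of 247, 459 and 569 bases. The windows below show both copies of Mastl and, for Arpp19, Ppp2ca, Ppp2r1a, Ppp2r1b and Ppp2r2a, the copy nearest to a downstream poly(A) signal (AATAAA or ATTAAA), so that the motif can be seen in its surroundings. The TTTTAT is in capitals.
Mastl, first copy: catgcgtgtcatTTTTATctaacttgtgat
Mastl, other copy: tgtttcattttcTTTTATttgtacagaatg
Arpp19: cagactcattacTTTTATcgtgacccaatt
Ppp2ca: aaattattatttTTTTATtaaaaggttgct
Ppp2r1a: gtgccatttttaTTTTATtcctttccctac
Ppp2r1b: tagaaattataaTTTTATaaacaatactga
Ppp2r2a: atatagtcaactTTTTATtaataaaactta

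The Mastl windows lie at chr2:23118403-23118432 and chr2:23116594-23116623 on the minus strand, with the motif 15 and 1824 bases into a 3′UTR of 2829 bases. The Arpp19 window is at chr9:75059750-75059779 (plus strand) and that of Ppp2ca at chr11:52124958-52124987 (plus). The windows of Ppp2r1a, Ppp2r1b and Ppp2r2a lie at chr17:20965846-20965875 (plus), chr9:50894090-50894119 (plus) and chr14:67014234-67014263 (minus). Between the first bases of motif and signal, the distance was 4 bases in Ppp2ca, 7 in Ppp2r2a, 30 in Ppp2r1a and 106 in Ppp2r1b. It was 138 and 793 for the Mastl copies, 517 for the Arpp19 copy shown and 820 for the Ensa copy. The Ppp2ca copy shown lay 2803 bases before the annotated 3′ end. The Arpp19 TTTTAT copy not shown, at position 3494, follows the AATAAA at 3474. No signal lies beyond that copy, which is 9 bases from the annotated end. In Ppp2ca the signal overlaps the motif. The Pumilio element, searched as TGTAAATA on the sense strand, was found in both Greatwall substrates and in no other member, against 11.98% of all 3′UTRs searched. That share was not split by length, and the 3′UTRs of Ensa and Arpp19 are long, at 3391 and 3508 bases. The element occurred once in Ensa and at 2 positions in Arpp19, shown here in capitals. Both paralogs carry it, and a link to their levels in KO was not tested.
Ensa: aggggaaggacaTGTAAATAtgcccttctc
Arpp19, first copy: ttgtgccattttTGTAAATAcaatagtttt
Arpp19, other copy: agctcaattctaTGTAAATAtatttgtaat

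These 3 windows lie at chr3:95630158-95630187, chr9:75057511-75057540 and chr9:75058652-75058681, all on the plus strand. The AU-rich pentamer ATTTA was present in 8 of 10 members, against 69.8% of all 3′UTRs searched, a share also not split by length. It was absent from Ppp2r1a and Ppp2r1b. A match describes the letters of one annotated transcript. Which 3′ end the oocytes used, and tail length, were not analysed here.

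Total counts ranged from 8639444 to 44092144, and 3 counts, the smallest signal taken as detectable, made from 0.068 to 0.347 CPM (read counts scaled to the library total). These floors cover counting error only. TMM factors were 0.849 to 0.943 in control and 1.07 to 1.14 in KO libraries. Scaling by library size alone moved the median log2 fold change of all genes up by 0.29. Cnot8 was lower in every KO library (33.1 to 36.1 CPM) than in any control library (154 to 197 CPM), and so was Cnot7 (622 to 788 against 886 to 1049 CPM). The fall in Cnot7 was modest for its level. Among genes of at least 100 CPM 55.3% were lower, with a median log2 fold change of -0.37. Cnot7 mRNA thus marks the KO libraries less clearly than Cnot8 does. The paper reports both proteins as depleted in KO oocytes by immunoblot. The summed level of 10 oocyte markers, among them Zp1, Zp2, Zp3, Gdf9 and Bmp15, was 16002 to 18186 CPM in control and 13632 to 15703 CPM in KO libraries, with 4 lower and 1 higher. The summed level of 10 granulosa and cumulus cell markers was 125 to 172 CPM in control and 209 to 262 CPM in KO libraries, with 5 higher and 1 lower of the 9 that passed the filter. The higher ones were Nr5a2 (mean 56.6 CPM in control, 122 in KO), Kitl (16.0 and 43.4), Inha (6.86 and 25.9), Inhba (2.49 and 5.50) and Fshr (1.29 and 3.87), and the lower one was Cyp19a1 (58.4 and 31.3). Foxl2 and Amh did not exceed 0.109 and 1.70 CPM in any library, and the part of such cells in the members' values was not tested. Because libraries are pools of oocytes scaled to their own total, less of an mRNA in each oocyte and fewer oocytes with it cannot be told apart.

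Levels of different genes were compared as TMM-normalized CPM per kilobase of the longest transcript. In control oocytes Mastl had the highest level, 93.1 ± 12.4 CPM per kilobase (SD, n = 4). It was followed by Ppp2r1a (55.3 ± 2.98), Arpp19 (44.3 ± 3.81), Ppp2r2d (29.1 ± 1.88), Ppp2ca (24.1 ± 4.25), Ppp2r2b (24.1 ± 0.868), Ensa (13.4 ± 1.40), Ppp2r2a (12.2 ± 2.38), Ppp2r1b (5.53 ± 0.701) and Ppp2cb (0.686 ± 0.520 CPM per kilobase). Neighbours in this order had ranges of libraries that did not overlap, except Ppp2r2d with Ppp2ca, Ppp2ca with Ppp2r2b, and Ensa with Ppp2r2a. The kinase mRNA was thus above each of its substrates and each phosphatase subunit per unit of length.

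In KO oocytes Mastl again had the highest level and Ppp2cb the lowest, at 69.9 ± 6.90 and 4.95 ± 0.517 CPM per kilobase. Between them lay Arpp19 (33.7 ± 2.78), Ppp2r1a (32.0 ± 1.85), Ppp2ca (20.9 ± 2.27), Ppp2r2d (18.6 ± 0.459), Ensa (16.0 ± 1.07), Ppp2r2b (14.6 ± 1.85), Ppp2r2a (8.20 ± 2.51) and Ppp2r1b (6.30 ± 0.187 CPM per kilobase). The overlapping neighbours were Arpp19 with Ppp2r1a, Ensa with Ppp2r2b, and Ppp2r2a with Ppp2r1b. The longest transcript of Ppp2r2d, of 3823 bases, is annotated as a retained intron. With its longest coding transcript of 2081 bases, a choice made after seeing the data, Ppp2r2d stood at 53.4 CPM per kilobase in control and 34.2 in KO, which put it at the level of Ppp2r1a. With all exons of a gene merged, Ppp2r1b (3.56) lay below Ppp2cb (4.95 CPM per kilobase) in KO.

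**Figure D1:**
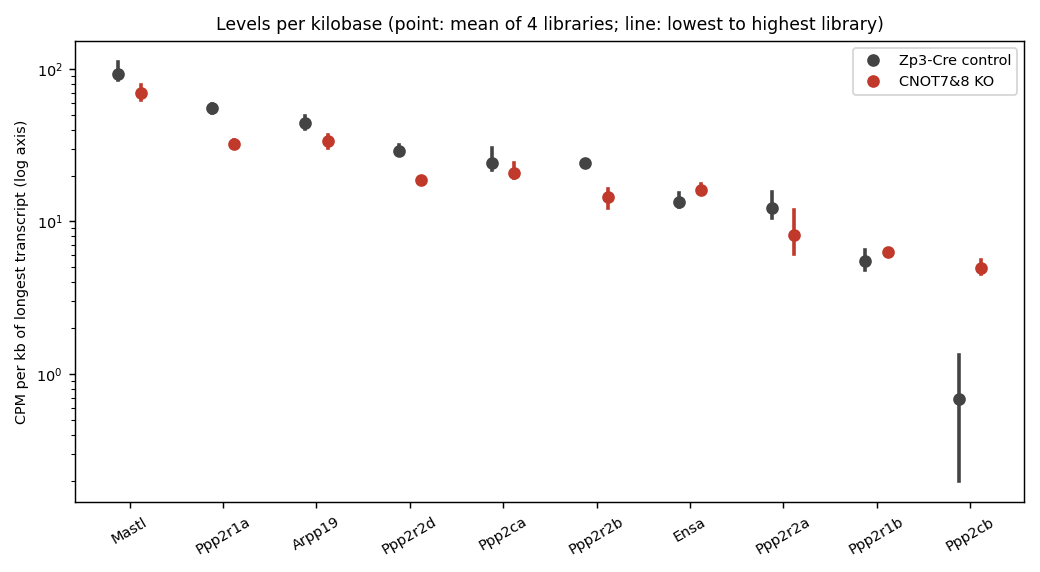
TMM-normalized CPM per kilobase of the longest transcript (log axis) for the 10 genes, ordered by control level, with points for the mean of 4 libraries and lines from the lowest to the highest library. Mastl was highest in both groups (93.1 and 69.9), and Ppp2cb moved from 0.686 in control to 4.95 in KO.

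Mastl (ENSMUSG00000026779, chr2:23115606-23156024, minus strand) encodes Greatwall. Its TMM-normalized level was 623, 473, 498 and 488 CPM in control replicates 1 to 4 and 370, 404, 351 and 438 CPM in KO replicates 1 to 4. All 4 KO libraries were below all 4 control libraries, with the smallest gap between KO replicate 4 and control replicate 2. The mean was 521 ± 69.4 CPM in control and 391 ± 38.5 CPM in KO (SD, n = 4), a log2 fold change of -0.41 (SE 0.12, 95% interval -0.67 to -0.16, edgeR adjusted p = 0.0105). The value was -0.13 with library size alone (edgeR adjusted p = 0.294) and -0.16 with TMM on genes of at least 10 CPM (edgeR adjusted p = 0.137), so the call was lost under both. Among genes of at least 100 CPM, where 55.3% were lower and the median log2 fold change was -0.37, Mastl stood at the 46.2 percentile. In the paper, Mastl protein was higher in KO oocytes, while its mRNA did not differ by RT-qPCR relative to spike-in RNA. The paper also reports Mastl mRNA in heavier polysome fractions and with longer poly(A) tails in KO. Protein was not measured here, and mRNA level alone does not give it.

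The Greatwall substrates are paralogs whose phosphorylated forms inhibit PP2A-B55. Arpp19 (ENSMUSG00000007656, chr9:75037614-75060313, plus strand) was at 198, 172, 184 and 163 CPM in control replicates 1 to 4 and at 140, 149, 122 and 133 CPM in KO replicates 1 to 4. The groups did not overlap, and all KO libraries were below the lowest control library. Its mean was 179 ± 15.4 CPM in control and 136 ± 11.2 CPM in KO (SD, n = 4), with a log2 fold change of -0.40 (SE 0.11, edgeR adjusted p = 0.00773). With library size alone and with TMM on genes of at least 10 CPM it was -0.11 and -0.14 and did not pass (edgeR adjusted p = 0.322 and 0.177).

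Ensa (ENSMUSG00000038619, chr3:95624993-95632102, plus strand) was at 59.5, 48.1, 50.8 and 48.2 CPM in control replicates 1 to 4 and at 60.03, 57.8, 67.5 and 61.2 CPM in KO replicates 1 to 4. Control replicate 1 lay within the KO range, and the other control libraries lay below it. The mean was 51.7 ± 5.37 CPM in control and 61.6 ± 4.13 CPM in KO (SD, n = 4). The log2 fold change of 0.25 (SE 0.12, 95% interval 0.0019 to 0.51) did not pass the test over all genes (edgeR adjusted p = 0.0805). It passed with DESeq2 (0.27, adjusted p = 0.0385), with 3 other scalings (0.35 to 0.54), with a stricter filter on low counts (0.32), without control replicate 1 (0.33) and without KO replicate 2 (0.31). In no alternative was Ensa lower in KO.

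Within a library, the ratio of 2 genes does not depend on how library sizes are scaled. Control libraries had 333 to 362 reads of Arpp19 per 100 reads of Ensa, and KO libraries had 181 to 258. Taken per kilobase of the longest transcript, the log2 ratio was lower in KO by 0.65, from 1.72 ± 0.059 to 1.07 ± 0.213 (SD, n = 4), with no overlap between groups (exact permutation test, two-sided, p = 0.0286, adjusted over 7 ratios p = 0.04). With 4 libraries against 4, 0.0286 is the smallest p this test can give. Per kilobase, Ensa made up 23.3 ± 0.727% of the 2 substrates in control and 32.3 ± 3.26% in KO (SD, n = 4). Mastl relative to the sum of its substrates differed by -0.20 on the log2 scale, with KO replicate 4 inside the control range (exact permutation test, p = 0.0857, adjusted p = 0.1).

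Ppp2ca and Ppp2cb encode the alpha and beta catalytic subunits of PP2A, near-identical proteins from separate genes. No stretch of 100 bases was shared by their annotated transcripts. Ppp2ca (ENSMUSG00000020349, chr11:52098681-52127778, plus strand) was at 217, 159, 157 and 154 CPM in control replicates 1 to 4 and at 141, 143, 137 and 172 CPM in KO replicates 1 to 4. KO replicate 4 lay above 3 control libraries, and the groups overlapped. The mean was 171 ± 30.2 CPM in control and 148 ± 16.1 CPM in KO (SD, n = 4), and the log2 fold change of -0.21 (SE 0.13, 95% interval -0.50 to 0.08) did not pass the test (edgeR adjusted p = 0.203) and turned to 0.081 with library size alone and 0.051 with TMM on genes of at least 10 CPM.

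Ppp2cb (ENSMUSG00000009630, chr8:33599625-33619441, plus strand) had few counts in control. It had 73, 10, 19 and 4 counts in control replicates 1 to 4 and 62, 121, 121 and 243 counts in KO replicates 1 to 4. These made 1.95, 0.493, 1.29 and 0.291 CPM in control and 6.73, 6.64, 7.46 and 8.27 CPM in KO. The KO libraries lay close together and all above the highest control library, while the control libraries were spread widely.

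The mean of Ppp2cb was 1.007 ± 0.763 CPM in control and 7.28 ± 0.759 CPM in KO (SD, n = 4). The log2 fold change was 2.75 (SE 0.41, 95% interval 1.86 to 3.63, edgeR adjusted p = 0.000134), and it stayed past both limits under every alternative tried, between 2.50 and 3.40 with 1 library left out. Genes of 1 to under 10 CPM had a median log2 fold change of 0.47, and Ppp2cb stood at the 88.4 percentile among them. Per 100 reads of Ppp2ca, control libraries had 0.190 to 0.901 reads of Ppp2cb and KO libraries had 4.64 to 5.44. The log2 ratio was higher in KO by 3.36, or 10.2-fold (exact permutation test, p = 0.0286, adjusted p = 0.04). Per kilobase, Ppp2cb made up 2.599 ± 1.64% of catalytic subunit mRNA in control and 19.2 ± 1.11% in KO (SD, n = 4), so that Ppp2ca remained the main catalytic mRNA in all 8 libraries.

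**Figure D2:**
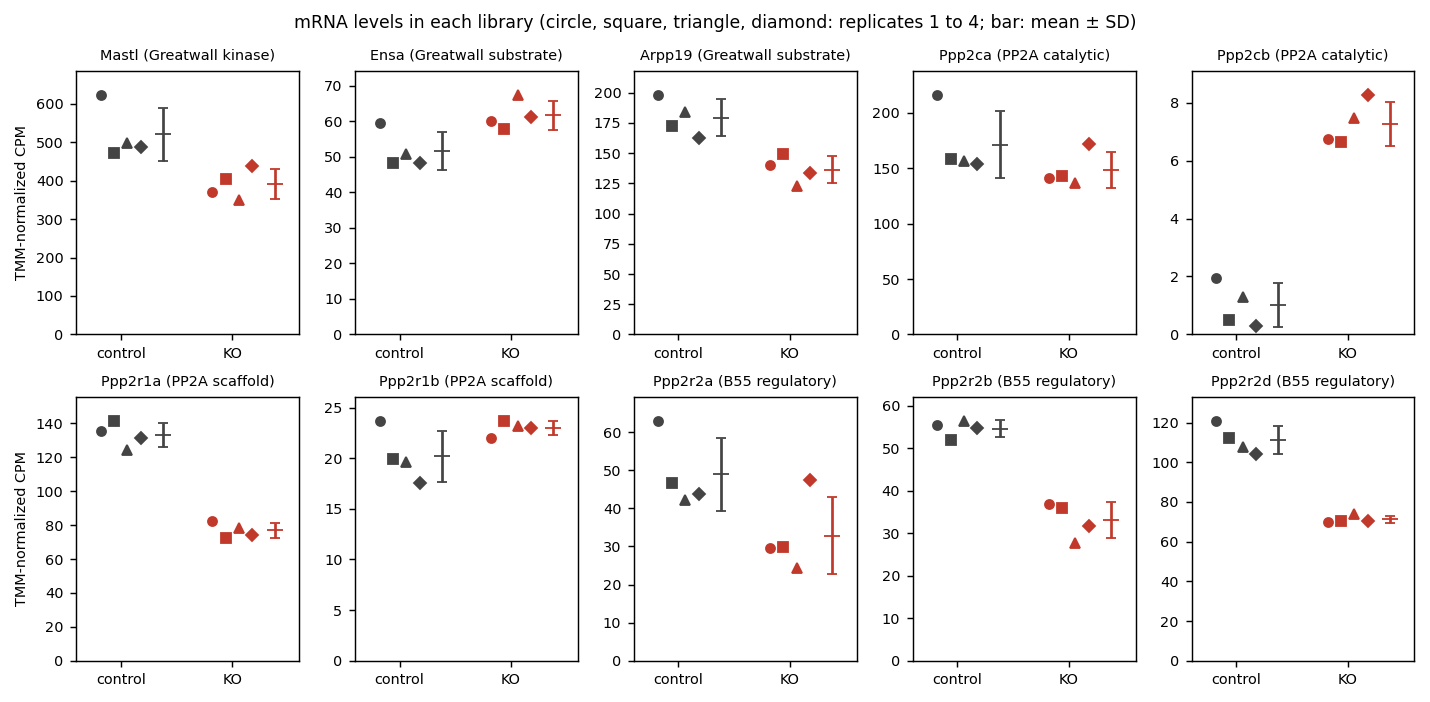
TMM-normalized CPM (linear axes from 0) of each gene in the 4 control and 4 KO libraries, with 1 symbol per replicate number and bars for mean ± SD. Groups were separate for Mastl, Arpp19, Ppp2cb, Ppp2r1a, Ppp2r2b and Ppp2r2d, and overlapped for Ensa, Ppp2ca, Ppp2r1b and Ppp2r2a.

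The scaffold subunit holds the catalytic and regulatory subunits together. Ppp2r1a (ENSMUSG00000007564, chr17:20945311-20965916, plus strand), the alpha scaffold, was at 135, 142, 124 and 132 CPM in control replicates 1 to 4 and at 82.6, 72.6, 78.6 and 74.4 CPM in KO replicates 1 to 4. Every KO library was far below every control library. The mean was 133 ± 7.17 CPM in control and 77.0 ± 4.46 CPM in KO (SD, n = 4), with a log2 fold change of -0.79 (SE 0.10, 95% interval -1.01 to -0.57, edgeR adjusted p = 4.34e-05). It passed under all 5 scalings, with values from -0.79 to -0.51. Its percentile among genes of at least 100 CPM was 14.8.

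Ppp2r1b (ENSMUSG00000032058, chr9:50845301-50894229, plus strand), the beta scaffold, was at 23.7, 19.9, 19.6 and 17.6 CPM in control replicates 1 to 4 and at 22.0, 23.7, 23.2 and 23.0 CPM in KO replicates 1 to 4. Control replicate 1 was as high as the highest KO library, and the groups overlapped. The mean was 20.2 ± 2.56 CPM in control and 23.0 ± 0.684 CPM in KO (SD, n = 4), and the log2 fold change of 0.19 (SE 0.13, 95% interval -0.10 to 0.47) did not pass the test (edgeR adjusted p = 0.256). It passed with library size alone (0.47, edgeR adjusted p = 0.00681) and with TMM on genes of at least 10 CPM (0.44, edgeR adjusted p = 0.00581). The gene overlaps Sik2 on the opposite strand, with up to 1101 counts in a library, and whether the authors' counting used strand is not given in the sources used here.

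The ratio of the 2 scaffold mRNAs differed between the groups. Control libraries had 13.3 to 17.5 reads of Ppp2r1b per 100 reads of Ppp2r1a, and KO libraries had 26.7 to 32.6. The log2 ratio was higher in KO by 0.99, or 1.98-fold, without overlap (exact permutation test, p = 0.0286, adjusted p = 0.04). Per kilobase, Ppp2r1b made up 9.10 ± 1.01% of scaffold mRNA in control and 16.5 ± 1.16% in KO (SD, n = 4). In the catalytic, scaffold and substrate pairs alike, the paralog with the lower level per kilobase in control took a larger share in KO. Over all genes tested, log2 fold changes also fell with level. The median was 1.05 under 1 CPM, 0.47 at 1 to under 10, -0.17 at 10 to under 100 and -0.37 at 100 CPM or more. Whether the shifts in the pairs go beyond this trend was not tested.

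The B55 subunits direct PP2A to CDK1 substrates and are what phosphorylated ENSA and ARPP19 bind. A further B55 gene, Ppp2r2c, is not among the 10 and is left out of the B55 sums, with 0.205 ± 0.0966 CPM in control and 0.114 ± 0.0975 CPM in KO (SD, n = 4), a difference that did not pass the test. Ppp2r2d (ENSMUSG00000041769, chr7:138846079-138883057, plus strand), B55 delta, was at 121, 112, 108 and 104 CPM in control replicates 1 to 4 and at 70.02, 70.5, 73.8 and 70.5 CPM in KO replicates 1 to 4. The KO libraries were nearly equal and all below control. The mean was 111 ± 7.18 CPM in control and 71.2 ± 1.75 CPM in KO (SD, n = 4), with a log2 fold change of -0.64 (SE 0.10, edgeR adjusted p = 0.000186). It overlaps Mapk1ip1 on the opposite strand, which had up to 4736 counts in a library, and the part of those reads was not tested.

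Ppp2r2b (ENSMUSG00000024500, chromosome 18, minus strand), B55 beta, was at 55.6, 51.9, 56.5 and 54.7 CPM in control replicates 1 to 4 and at 36.9, 36.0, 27.8 and 31.7 CPM in KO replicates 1 to 4. All KO libraries were below the lowest control library. The mean was 54.7 ± 1.97 CPM in control and 33.1 ± 4.19 CPM in KO (SD, n = 4), a log2 fold change of -0.73 (SE 0.12, edgeR adjusted p = 0.00037). Both Ppp2r2b and Ppp2r2d stayed lower and past the test under all 5 scalings, with values from -0.73 to -0.45 for Ppp2r2b and from -0.64 to -0.36 for Ppp2r2d.

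Ppp2r2a (ENSMUSG00000022052, chr14:67014056-67072444, minus strand), B55 alpha, was at 63.0, 46.7, 42.2 and 43.8 CPM in control replicates 1 to 4 and at 29.5, 29.98, 24.5 and 47.5 CPM in KO replicates 1 to 4. Of the KO libraries 3 were below all controls, and KO replicate 4 was above 3 controls. The mean was 48.9 ± 9.55 CPM in control and 32.9 ± 10.1 CPM in KO (SD, n = 4), with a log2 fold change of -0.57 (SE 0.20, edgeR adjusted p = 0.0304). The call was lost with library size alone (-0.28), upper quartile scaling (-0.46), TMM on genes of at least 10 CPM (-0.31) and the stricter filter (-0.50). It was also lost without control replicate 1 (-0.42) and without KO replicate 1 (-0.49), 2 (-0.50) or 3 (-0.42). A processed pseudogene, Gm19221, shares 1.02% of the 100-base stretches of its transcripts.

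**Figure D3:**
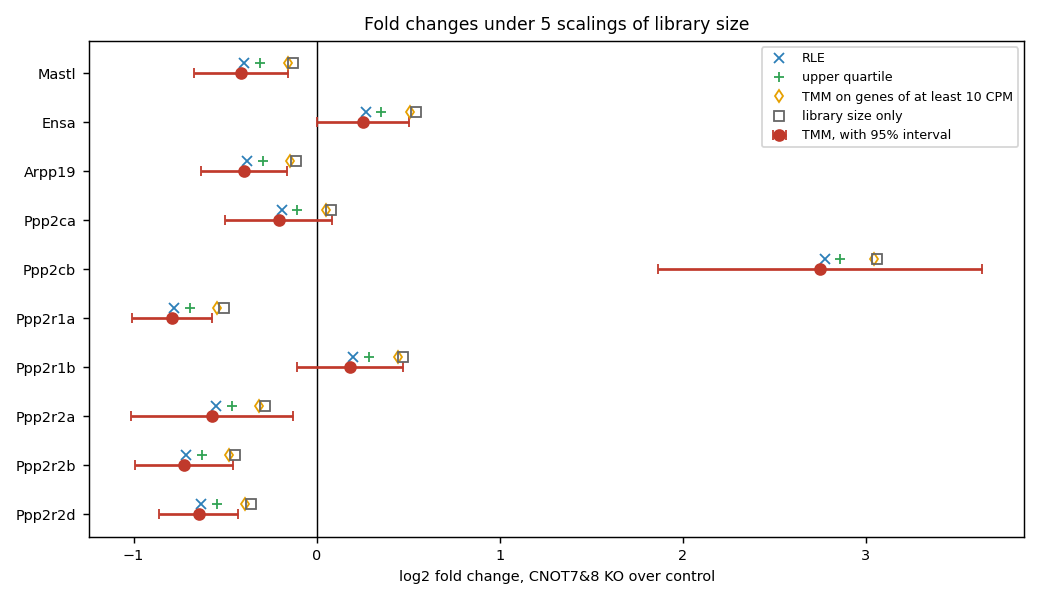
Log2 fold change of each gene, KO over control, with 95% intervals under TMM scaling and values under 4 other scalings of library size. Ppp2r1a, Ppp2r2b and Ppp2r2d lay below 0 and Ppp2cb above 0 under every scaling, Ppp2ca crossed 0, and library size alone gave the highest value for each gene.

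The shares of the 3 B55 mRNAs overlapped between the groups. Per kilobase, Ppp2r2d made up 44.5 ± 0.974% of the 3 in control and 45.2 ± 4.19% in KO, Ppp2r2b 36.9 ± 2.39% and 35.2 ± 3.68%, and Ppp2r2a 18.6 ± 2.32% and 19.6 ± 4.83% (SD, n = 4). The log2 ratio of Ppp2r2d to Ppp2r2a differed by -0.041, less than its spread between libraries, with overlapping groups (exact permutation test, p = 0.743, adjusted p = 0.743). It changed sign without KO replicate 4 (0.16) and without control replicate 3 (0.0090).

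Summed per kilobase, B55 subunits fell relative to catalytic subunits. The log2 ratio was 1.41 ± 0.160 in control and 0.68 ± 0.103 in KO (SD, n = 4), lower by 0.73, without overlap (exact permutation test, p = 0.0286, adjusted p = 0.04). The summed Greatwall substrates relative to the B55 subunits had log2 ratios of -0.15, -0.21, -0.12 and -0.24 in control and 0.26, 0.31, 0.34 and 0.15 in KO replicates 1 to 4. Substrate mRNA summed to a mean of 57.7 CPM per kilobase in control and 49.7 in KO, and the B55 mRNAs to 65.3 and 41.4. The difference of 0.45 on the log2 scale, or 1.36-fold, was without overlap (exact permutation test, p = 0.0286, adjusted p = 0.04). Of the 7 ratios, 5 differed at an adjusted p of 0.05. Which sum was the larger rested on the length used: with the longest coding transcripts the B55 mRNAs summed to 89.7 in control and 57.0 in KO and exceeded the substrates in both groups. With merged exons the substrates exceeded the B55 mRNAs in both, at 45.8 against 41.6 in control and 39.0 against 26.5 in KO. The difference between the groups in the log2 ratio was 0.44 and 0.42 with these lengths.

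**Figure D4:**
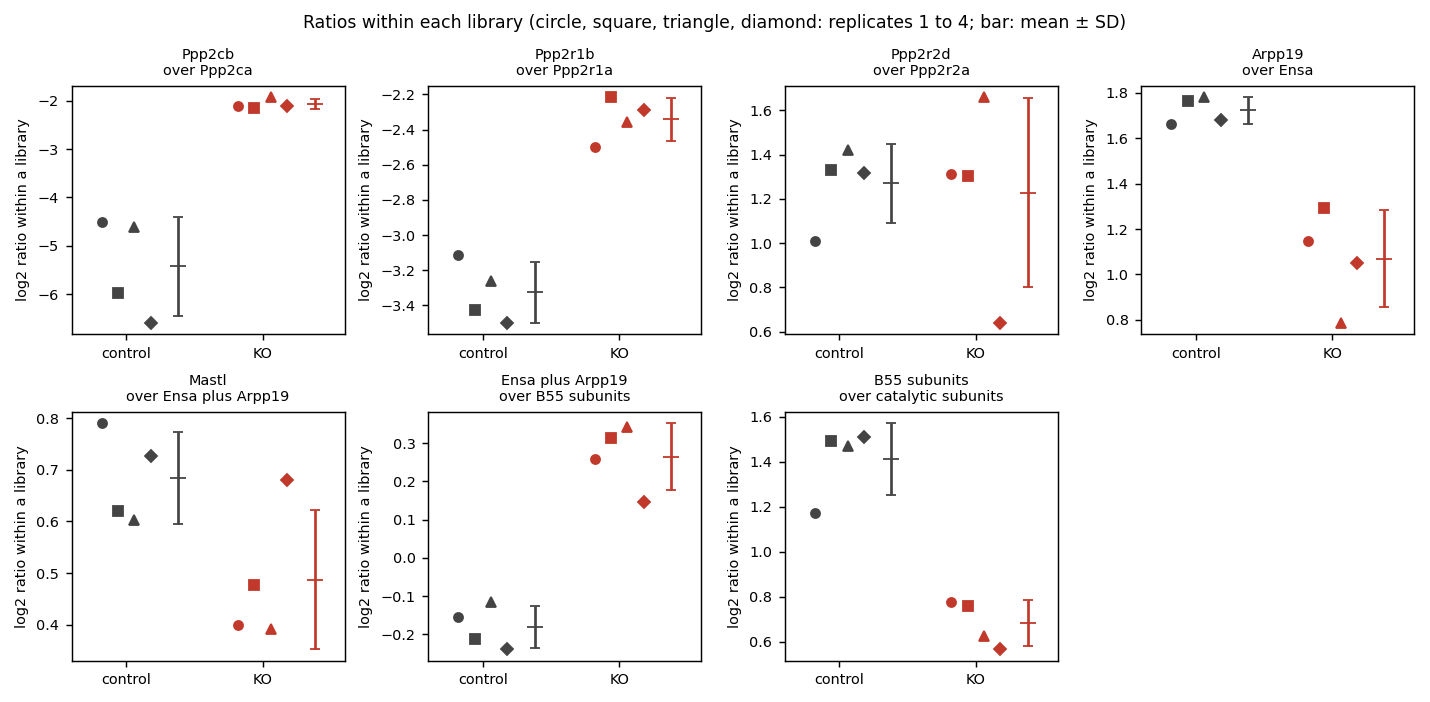
Log2 ratio of genes or sums of genes, taken per kilobase of the longest transcript, within each library, for 7 ratios, with 1 symbol per replicate number and bars for mean ± SD. Control and KO libraries were separate in 5 panels and overlapped for Ppp2r2d over Ppp2r2a and for Mastl over its substrates.

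The median log2 fold change of the 10 members was -0.40, against 0.12 for all genes tested, -0.17 for genes of 10 to under 100 CPM and -0.37 for genes of at least 100 CPM. Of the 10 members, 9 had a mean level of at least 10 CPM.

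A wider list of 45 genes held other PP2A regulatory subunits, PP2A inhibitors, assembly and methylation factors, phosphatases that act on Greatwall, PP2A-like catalytic subunits and the CDK1 switch. Of these, 44 passed the filter, and Fam122c had no count in any library. In KO oocytes 21 were lower, 6 were higher and 17 did not pass the test, with a median log2 fold change of -0.30 (0.12 for all genes tested, of which 24.1% were lower and 31.2% higher). Among genes of 10 to under 100 CPM 36.8% were lower and 25.8% higher, and among those of at least 100 CPM 55.3% and 8.33%. These shares are also the background for the class counts below. DEGs numbered 5 lower and 4 higher, against 6.56% and 23.8% of all genes tested. With library size alone 11 were lower and 11 higher, and with TMM on genes of at least 10 CPM 11 were lower and 12 higher.

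Of 12 other B-type regulatory subunits, 7 were lower, 2 higher and 3 did not pass. The B56 subunits Ppp2r5d and Ppp2r5b, members of the PP2A family that protects cohesion at centromeres, were DEGs. Ppp2r5d was at 98.5, 100.5, 83.1 and 104 CPM in control and 43.9, 35.7, 38.8 and 38.1 CPM in KO replicates 1 to 4, with a log2 fold change of -1.31 (SE 0.12, edgeR adjusted p = 3.44e-06). Ppp2r5b was lower by the same test, from 15.6 ± 1.83 CPM in control to 6.62 ± 1.15 CPM in KO (SD, n = 4), a log2 fold change of -1.24. No B55 subunit had a log2 fold change this far below 0, and the difference between them was not tested.

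The B''-type subunits Ppp2r3a and Ppp2r3d were called in opposite directions. Ppp2r3a was at 3.93, 1.33, 2.52 and 1.67 CPM in control and 9.66, 9.99, 10.6 and 15.4 CPM in KO replicates 1 to 4, without overlap (log2 fold change 2.23, SE 0.31, edgeR adjusted p = 8.19e-05). Ppp2r3d was lower, from 7.21 ± 3.25 to 2.41 ± 1.19 CPM (SD, n = 4), with a log2 fold change of -1.58, though control replicate 1 at 2.57 CPM lay below KO replicate 3 at 4.13 CPM. So were 2 of the striatins, scaffolds of the STRIPAK complex that holds PP2A. Strn, with the highest mean CPM of this class, was lower (1673 ± 328 to 1079 ± 118 CPM, log2 fold change -0.63). Strn3 was higher (21.5 ± 8.11 to 83.3 ± 12.6 CPM, log2 fold change 1.94, edgeR adjusted p = 2.83e-05). Levels of the wider list were not taken per kilobase.

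Among 9 listed PP2A inhibitors, 3 were lower and 2 higher of the 8 that passed the filter. Cip2a, an inhibitor known from tumors, fell from 180 ± 26.4 to 89.4 ± 12.5 CPM (SD, n = 4, log2 fold change -1.01), and Bod1, an inhibitor of PP2A-B56 at kinetochores with a site like that of ENSA, from 460 ± 20.5 to 274 ± 19.1 CPM (log2 fold change -0.75). Fam122b, of a family that inhibits PP2A-B55, was higher, at 22.9 ± 2.94 CPM in control and 50.3 ± 5.99 CPM in KO (log2 fold change 1.13). Of 4 assembly and methylation factors 3 were lower and none higher, among them Igbp1, which binds and stabilizes free catalytic subunits (154 ± 6.85 to 99.6 ± 6.43 CPM, log2 fold change -0.63).

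The 4 listed phosphatases that act on Greatwall included 1 lower gene. The one with the highest mean CPM, the PP1 catalytic subunit Ppp1cb, did not pass (68.9 ± 15.2 CPM in control, 86.0 ± 16.1 CPM in KO, log2 fold change 0.32). It passed as higher under 3 other scalings (0.42 to 0.61). Of the 2 PP2A-like catalytic subunits, Ppp4c was lower (log2 fold change -0.65, edgeR adjusted p = 0.00874), a call that was lost with library size alone (-0.37) and with TMM on genes of at least 10 CPM (-0.41). Of 14 genes of the CDK1 switch, 6 were lower and 2 higher. Ccnb1, the cyclin that drives entry into the first meiotic division, had the highest mean CPM of them. It went from 1625 ± 215 CPM in control to 1569 ± 89.3 CPM in KO (SD, n = 4), a log2 fold change of -0.050 that did not pass. The value turned positive under 3 other scalings and passed as higher under 1 of them, TMM on genes of at least 10 CPM (0.21, edgeR adjusted p = 0.0411). Ccnb3, a cyclin needed for anaphase of the first division, fell from 131 ± 21.9 to 60.4 ± 13.2 CPM (log2 fold change -1.12). Wee1, a kinase that inhibits CDK1, was higher (12.5 ± 5.17 to 27.9 ± 8.82 CPM, log2 fold change 1.15), although control replicate 1 (19.9 CPM) and KO replicate 2 (19.7 CPM) overlapped.

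**Figure D5:**
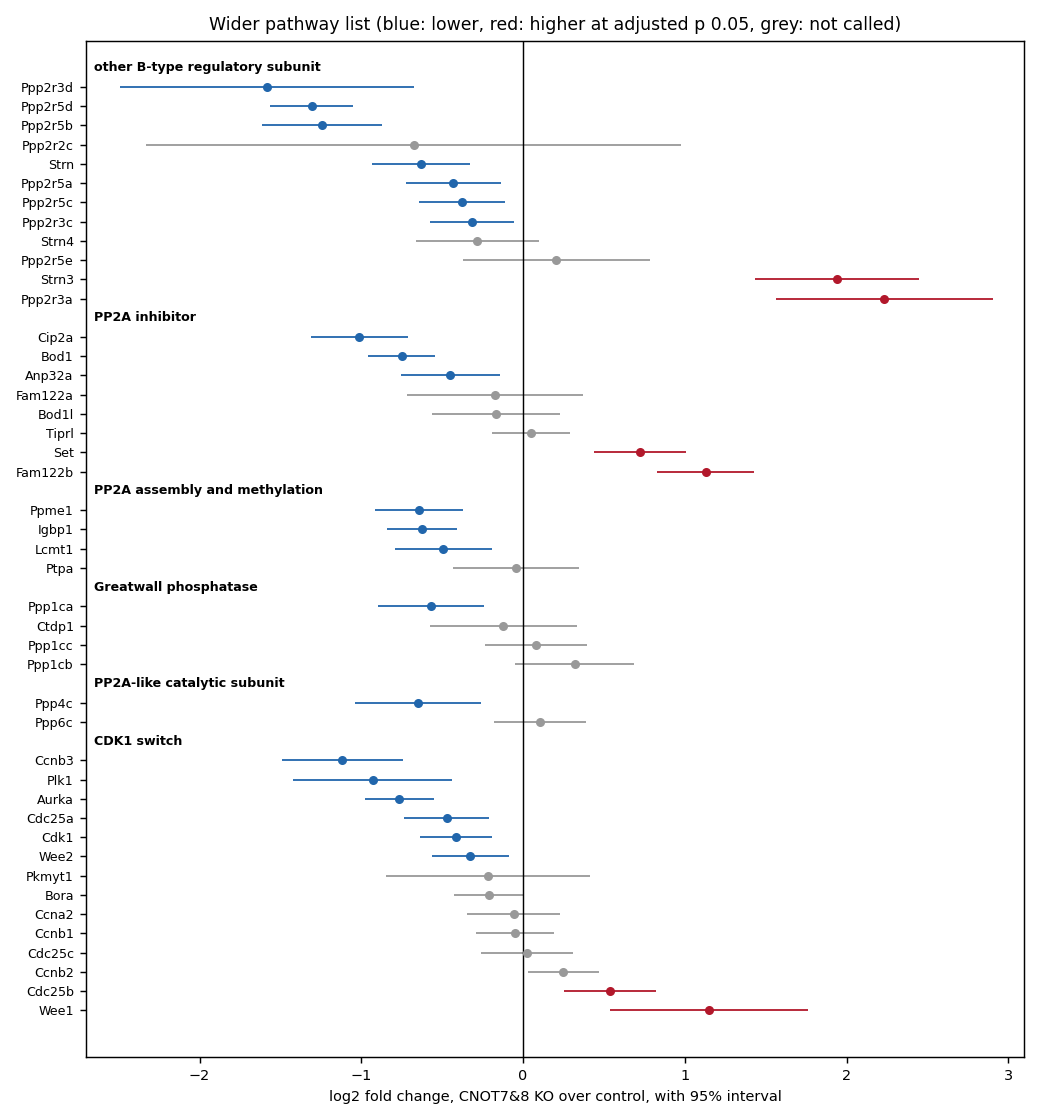
Log2 fold change, KO over control, with 95% intervals for the 44 genes of the wider list that passed the filter, by class. The 21 lower genes are blue, the 6 higher genes red and the 17 that did not pass grey, from Ppp2r3d at -1.58 to Ppp2r3a at 2.23.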

How the data were processed

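RNA from 8 libraries of 100 GV oocytes each was analyzed, 4 per genotype, grouped by the deposited labels. The authors deposited 1 table of raw counts, reads per gene and library, that had not been normalized or pooled. Per the submitters' processing notes, STAR 2.6.1d and edgeR 3.11 were used with the GRCm38 (mm10) mouse genome. The labels name a stranded total RNA kit with ribosomal RNA removal, whereas the study's methods name a stranded mRNA kit and describe it as based on ribosomal RNA depletion. Whether poly(A) tails affected capture cannot be told from these sources. The counting tool, annotation release and strand setting are not given in the sources used here.

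The counts were tested with edgeR 4.0.16 (R 4.3.3). Of 28353 genes with a count, 19241 had at least 0.2 CPM in 2 or more libraries and were tested with TMM scaling, the quasi-likelihood test and Benjamini-Hochberg adjustment over all of them. A DEG passed an adjusted p of 0.05 and changed at least 2-fold. CPM of single genes used the TMM-scaled library size. Ratios within libraries used a prior count of 0.5 and two-sided exact permutation tests over 70 assignments, adjusted over 7 ratios, with each gene taken per kilobase of its longest transcript. Positions, lengths and 3′UTRs came from GENCODE vM21 (Python 3.11.15, pandas 2.3.3, matplotlib 3.10.9). Total counts of 8639444 to 44092144 set the precision, and the scripts were tested on simulated data.

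The members and lists were chosen with earlier results of these data known. All members are named. Of the wider list, every DEG and the gene with the highest mean CPM of each class are named. Alternatives were edgeR's exact test, DESeq2 1.42.0, other scalings, filters and lengths, the replicate number as a block, and leaving out each library. Leaving out 2 libraries together and the longest coding transcript were added after seeing the data. Same-numbered libraries of the 2 groups did not consistently deviate together, whereas some libraries of different number did. One sequence window is not reported here.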

Additional observations from a re-analysis of the deposited data

Results flagged for a closer look

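Within a group of 4 libraries, a library was noted where its gap to the nearest other library was too large a part of the group's range by Dixon's 95% critical value. Of 64 groups of values examined, 8 had such a library, where chance gives about 1 in 20, or 3.2. Control replicate 1 stood above the others for Mastl (623 CPM, others 473 to 498), Ppp2ca (217 CPM, others 154 to 159), Ccnb3 (164 CPM, others 117 to 123) and Strn (2160 CPM, others 1449 to 1558), and below them in the log2 ratio of B55 to catalytic subunits (1.17, others 1.47 to 1.51). KO replicate 4 stood above the others for Ppp2ca (172 CPM, others 137 to 143) and Ppp2r3a (15.4 CPM, others 9.66 to 10.6). KO replicate 3 stood above the others for Ppp2r2d (73.8 CPM, others 70.02 to 70.5), within a range that is narrow for these data. Control replicate 1 and KO replicate 4 were the deepest libraries of their groups, and 7 of the 8 values were theirs. The part of depth was not tested.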

How the results depend on the processing

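Ppp2cb, Ppp2r1a, Ppp2r2b and Ppp2r2d kept direction and call under all alternatives run. The number of members lower in KO (6) was 5 with upper quartile scaling and with the filter of at least 1 CPM in 4 libraries. It was also 5 without control replicate 1 and without KO replicate 1, 2 or 3. With library size alone and with TMM on genes of at least 10 CPM it was 3. The number higher (1) was 2 with DESeq2, upper quartile scaling, the same filter, and control replicate 1 and KO replicate 4 left out together. It was 1 to 2 with 1 library left out, and 3 with library size alone or with TMM on genes of at least 10 CPM. For the wider list, lower genes (21) numbered 11 with either of these scalings, and higher genes (6) numbered 11 and 12. Over all genes, 2620 were lower and 7742 higher with library size alone. Ppp2ca (-0.21) turned to 0.081 and 0.051 under the same scalings, and Ccnb1 (-0.050) to 0.24 with library size alone, 0.21 with TMM on genes of at least 10 CPM (a call, adjusted p = 0.0411 by edgeR), 0.051 with upper quartile scaling, 0.021 with the stricter filter, and -0.11 to 0.034 with 1 library left out, where those without control replicate 1 (0.034) and KO replicate 1 (0.0016) were above 0. Ppp1cb (0.32) passed as higher with library size alone (0.61), TMM on genes of at least 10 CPM (0.58) and upper quartile scaling (0.42), without control replicate 1 (0.49) or KO replicate 1 (0.42), and without control replicate 1 and KO replicate 4 (0.35). The causes were not tested.

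The log2 ratio of Ppp2r2d to Ppp2r2a ranged from -0.18 to 0.16 with 1 library left out and was 0.069 without control replicate 1 and KO replicate 4. That of Mastl to its substrates ranged from -0.26 to -0.16 and passed without KO replicate 4. The other 5 ratios kept direction under all alternatives run. With 3 libraries against 3 the smallest exact p is 0.1.

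Deviations from the group mean had correlations of -0.38, -0.14, 0.40 and -0.58 between same-numbered libraries, so the numbers did not mark pairs. Libraries of different number ranged from -0.70 (control replicate 1 with KO replicate 3) to 0.82 (control replicate 1 with KO replicate 4). Control replicate 2 with KO replicate 3 had 0.65. Some libraries of the 2 groups thus deviated together, and the source was not tested. With the replicate block, 6 members were lower and 1 higher, Ppp2cb had a log2 fold change of 2.95, and 18 genes of the wider list were lower. Over all genes 4201 were lower and 5511 higher, and no call among the members changed. Depth limits the control level of Ppp2cb, which had 4 to 73 counts per library.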
